A study of Mus musculus with 30 samples.

Results

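The genes described here encode some of the enzymes that convert foreign compounds in mouse liver. The list names 37 genes, of which 35 were measured among 12188 named genes tested. Its members were chosen by name, and array probes were assigned to them through the RefSeq transcript of each probe. They are 12 cytochromes P450 of the CYP2 family, 3 of the CYP3 family, 5 UDP-glucuronosyltransferases (UGT), 8 glutathione transferases (GST) and 7 enzymes of other kinds. Ugt2b36 and Gstk1 matched no probe by transcript and were not analysed here. A probe entered the tests when 14 or more of the 30 arrays showed its liver signal well above background. All 46 probes of these genes were above background on all 30 arrays and none was saturated.

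Liver RNA was taken from female C57BL/6 mice that had been acquired at 5 to 6 weeks of age, with 1 array per mouse. The 14 exposed mice had received 0.162 mg of Printex 90 carbon black nanoparticles through the trachea, in 40 µl of 0.9% NaCl with 10% lung lavage fluid from the same strain, followed by 150 µl of air. The 16 control mice carry the treatment label none, and the labels do not say whether they received the liquid without particles. Each array held liver RNA in Cy5 and a universal mouse reference RNA in Cy3, and no dye was swapped, so a dye effect is part of every ratio. All values below are log2 ratios of liver over reference, or differences between such ratios. The series text speaks of groups of 6 mice, and the groups here are larger. The labels give no time after instillation. The animals of each group fall into 3 runs of close numbers, separated by gaps above 10. What a run stands for is not given in the labels. Control runs 1, 2 and 3 held animals 547 to 552 (n = 6), 570 to 575 (n = 5) and 595 to 600 (n = 5). Exposed runs 1, 2 and 3 held animals 176 to 180 (n = 4), 193 to 197 (n = 5) and 212 to 216 (n = 5).

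The liver clears lipophilic compounds in steps. Phase I enzymes, mainly cytochromes P450 with flavin monooxygenases, aldehyde oxidases and epoxide hydrolases, add or uncover a reactive group. Phase II enzymes join that group to glucuronic acid or glutathione, which makes the product easier to excrete, or to a methyl group. Hepatocytes express these genes at high levels, nuclear receptors such as the pregnane X receptor and the constitutive androstane receptor (CAR) induce many of them, and inflammation of the body lowers many P450 transcripts. The CYP2C, CYP2D, CYP3A and UGT2B genes lie in clusters of closely related copies, and how far a probe also binds a relative of its gene was not tested.

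RefSeq promoter sequences were on hand for 30 of the 37 listed genes (mouse build GRCm38.p6, first listed start of each gene). The 5 shown are a CYP3A pair with values described below and 3 UGT2B genes whose levels varied together across animals. Each is the 250 bases before the start, 5′ to 3′, at chr5:145879855-145880104 (minus strand), chr5:137921620-137921869 (minus strand), chr5:86926504-86926753 (minus strand), chr5:86906938-86907187 (minus strand) and chr5:87000610-87000859 (plus strand). Capitals mark a match to CAAAGTCC, a site form of the liver factor HNF4, in Cyp3a11, and to TTACATAA, a D-box form bound by the clock output factors Dbp, Tef and Hlf, in Ugt2b1.
Cyp3a11: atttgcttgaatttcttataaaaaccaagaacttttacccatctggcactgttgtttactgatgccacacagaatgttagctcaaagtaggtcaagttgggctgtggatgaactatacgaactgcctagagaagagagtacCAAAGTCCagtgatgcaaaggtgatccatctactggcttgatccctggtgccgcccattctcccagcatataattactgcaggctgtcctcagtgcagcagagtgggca
Cyp3a13: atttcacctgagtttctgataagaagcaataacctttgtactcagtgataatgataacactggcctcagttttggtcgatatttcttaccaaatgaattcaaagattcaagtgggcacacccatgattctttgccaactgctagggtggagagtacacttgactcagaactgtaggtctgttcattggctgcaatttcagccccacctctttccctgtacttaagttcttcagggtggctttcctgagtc
Ugt2b1: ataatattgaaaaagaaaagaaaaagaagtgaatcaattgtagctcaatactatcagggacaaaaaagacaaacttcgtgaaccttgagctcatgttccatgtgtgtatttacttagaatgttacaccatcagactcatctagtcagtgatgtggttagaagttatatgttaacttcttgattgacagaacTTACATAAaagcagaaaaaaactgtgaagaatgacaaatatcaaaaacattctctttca
Ugt2b34: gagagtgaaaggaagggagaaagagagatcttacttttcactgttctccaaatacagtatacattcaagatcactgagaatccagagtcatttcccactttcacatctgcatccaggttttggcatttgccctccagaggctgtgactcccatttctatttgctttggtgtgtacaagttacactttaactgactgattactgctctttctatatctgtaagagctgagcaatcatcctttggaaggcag
Ugt2b35: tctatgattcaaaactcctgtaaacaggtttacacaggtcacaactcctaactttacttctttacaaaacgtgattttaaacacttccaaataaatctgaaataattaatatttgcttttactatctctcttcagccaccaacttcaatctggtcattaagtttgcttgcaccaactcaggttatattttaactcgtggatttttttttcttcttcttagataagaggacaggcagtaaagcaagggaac
The HNF4 form stood on either strand of 3 of 30 member promoters (Cyp2a5, Cyp2c70 and Cyp3a11; 10%) against 1.22% of 27025 promoters of the same length. A D-box (TTATGTAA, TTACATAA or TTACGTAA) stood in 1 member promoter (3.33%), against 0.962% of all. The antioxidant response core TGACNNNGC stood in 1 of 30, that of Mgst1, and in 2743 of all 27025. Entries for Nnmt, Cyp2c54, Cyp2c44, Cyp2d22, Ephx2, Fmo1 and Gstt2 are missing.

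Median Cy5 signals ranged from 104 to 196 over the arrays, where 43.3% to 79.6% of the probes stood well above background. The arrays lay on 9 slides, with controls in positions 1 and 2 and exposed mice in positions 3 and 4, so position and group cannot be told apart. Within each group all run 1 arrays held the first of these positions and all run 3 arrays the second, so between these runs position and run cannot be told apart either. The 5 hepatocyte markers fixed in the gene lists (Alb, Ttr, Apoa1, Fabp1 and Tat) had a mean log ratio from 5.29 to 6.77 in control and from 5.16 to 6.36 in exposed mice. Of the 42 listed markers of 9 cell types 31 were tested. The mean of the Kupffer cell markers (5 of 6 tested) ranged from 3.51 to 4.95 over control and from 3.59 to 4.71 over exposed mice. That of the neutrophil markers (2 of 6 tested) ranged from 0.78 to 2.34 and from 1.44 to 2.36. Those 2 neutrophil genes lay on opposite sides of the reference, with control means of -0.44 for S100a8 and 3.45 for S100a9. The neutrophil gene Elane was above background on 0 arrays. The mean of the bile duct markers stood below the reference on every array, from -2.02 to -1.46 in controls and from -2.18 to -1.77 in exposed mice.

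In control liver nearly all of these enzymes stood far above the mixed reference RNA. Of the 35, 34 had a mean log ratio above 0 and 31 a mean above 3, which 5.96% of all named genes reached. P450 genes of the CYP2 family had a median of 5.67 and a range from 3.72 (Cyp2c39) to 7.60 (Cyp2a5, which oxidises coumarin and nicotine). The CYP3 genes lay between 5.88 (Cyp3a11, a major drug-metabolising P450) and 6.98 (Cyp3a25), and the UGT genes between 4.80 (Ugt2b1) and 7.40 (Ugt2a3). The GST genes formed the lowest class with a median of 3.56. Mgst1, the microsomal member, was highest among them at 4.11 ± 0.33 (SD, n = 16). Gstp1, the pi class transferase, was the one member below the reference, at -0.30 ± 0.21 (SD, n = 15, as 1 value was missing). A second, dimmer Gstp1 probe had a control mean of 0.09, so the sign depends on the probe. Among the other enzymes Ephx2, the soluble epoxide hydrolase that acts on fatty acid epoxides, stood at 6.76 ± 0.63 (SD, n = 15), and Ephx1, its microsomal relative, at 1.06 ± 0.32 (SD, n = 16). These values are ratios to the reference and do not rank the genes by transcript number.

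**Figure D1:**
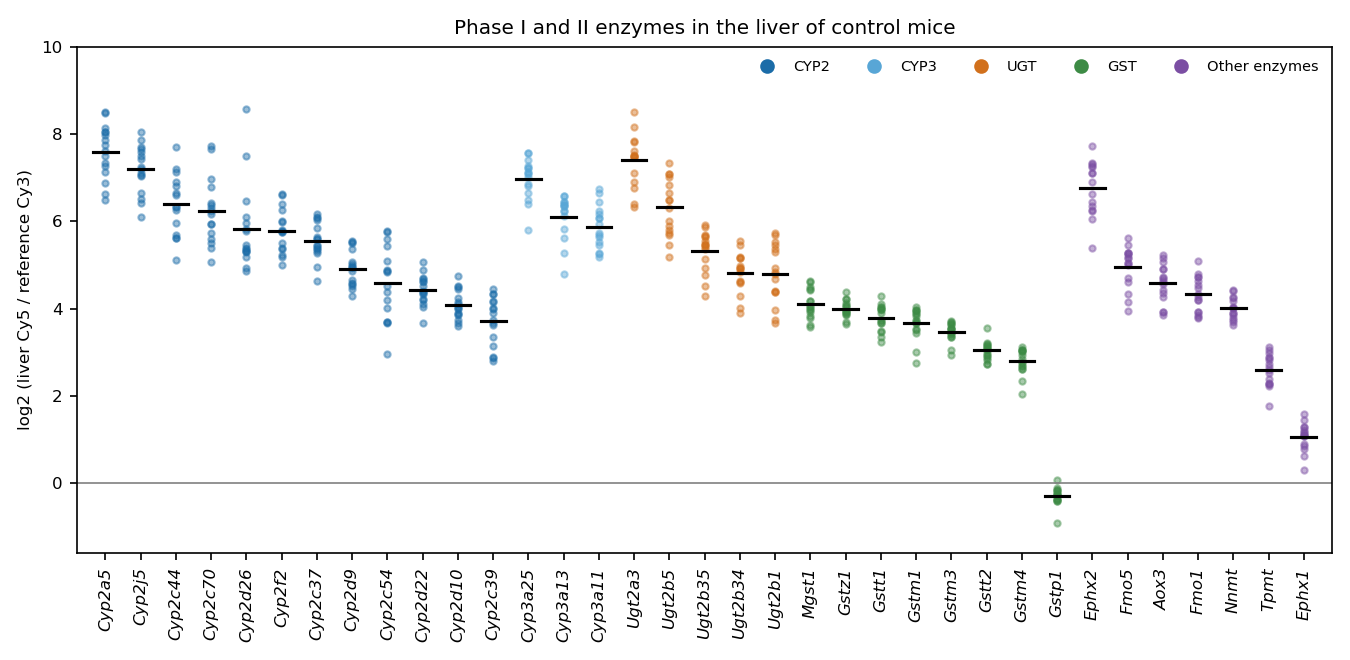
Log2 ratio of liver over reference RNA in the 16 control mice for the 35 enzymes, ordered by level within each class. Points are animals and bars are means. The enzymes spread from Gstp1 at -0.30 to Cyp2a5 at 7.60.

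The first question was whether these enzymes differ between the livers of exposed and control mice. Over all animals 0 of the 35 passed (limma, adjusted p under 0.05), against 0.0164% of all named genes, and 1 had an unadjusted p under 0.05, against 12.3%. The median difference, exposed minus control, was 0.02 over the members and 0.00 over all named genes, with 21 members above 0 and 14 below. By class the medians were -0.09 for CYP2, 0.00 for CYP3, 0.12 for UGT, 0.01 for GST and 0.13 for the other enzymes. For 31 of the 35 the 95% confidence interval of the difference lay within 1.5-fold in either direction. The 4 others, Cyp2c39, Cyp2c44, Cyp2c54 and Cyp2d26, are all CYP2 genes. In bulk liver RNA a change in the number of hepatocytes and a change in RNA per hepatocyte cannot be told apart.

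**Figure D2:**
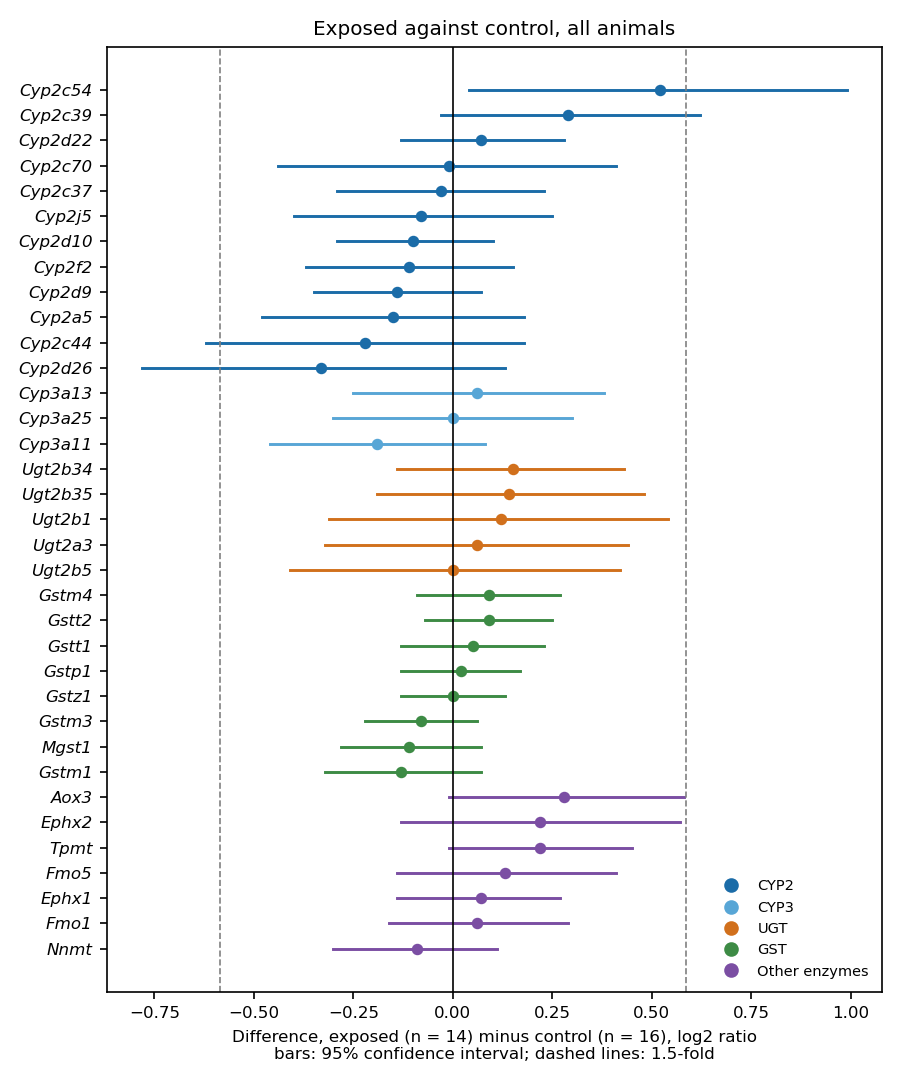
Difference in log2 ratio, exposed (n = 14) minus control (n = 16), with its 95% confidence interval for each enzyme, grouped by class. Every interval but that of Cyp2c54 (0.04 to 0.99) includes 0, and the GST genes have the narrowest intervals of the 5 classes.

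Within the CYP2 class the widest differences ran in opposite directions. Cyp2c54, an arachidonic acid metabolising P450, ranged from 2.95 to 5.78 (median 4.68) in control and from 4.08 to 6.15 (median 5.03) in exposed mice. Its difference was 0.52 ± 0.23 (SE; 1.43-fold; adjusted p = 0.37), and exposed mice were higher on 5 of the 7 slides that held both groups. The groups overlapped over most of their range. Cyp2c39, another CYP2C gene, stood at 0.29 ± 0.16 (SE; adjusted p = 0.466), and Cyp2c37 at -0.03 ± 0.13 (SE). Cyp2d26 stood at -0.33 ± 0.22 (SE; adjusted p = 0.585). Control animals 572 and 596, which shared a slide, reached 7.50 and 8.58 for Cyp2d26, while the control median was 5.43 and the exposed range 4.88 to 5.86. Without that slide, which held no exposed mouse, the difference was -0.09 ± 0.12 (SE; adjusted p = 0.844).

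CYP3, UGT and GST genes differed by less. Cyp3a11 stood at -0.19 ± 0.13 (SE; adjusted p = 0.598) and was lower in exposed mice on 6 of 7 slides. Cyp3a13 and Cyp3a25 stood at 0.06 ± 0.15 and 0.00 ± 0.15 (SE). All 5 UGT genes, which attach glucuronic acid to steroids and drugs, had estimates from 0.00 to 0.15. Ugt2b34 stood at 0.15 ± 0.14 (SE; adjusted p = 0.727), Ugt2b35 at 0.14 ± 0.16 and Ugt2b1 at 0.12 ± 0.21. The GST genes had the narrowest intervals of the classes, with a median half-width of 0.17. Gstm1, a mu class transferase, stood at -0.13 ± 0.10 (SE; 95% interval -0.32 to 0.07), Mgst1 at -0.11 ± 0.09 and Gstt2, a theta class transferase, at 0.09 ± 0.08. None of these passed.

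Of the 7 other enzymes 6 had an estimate above 0, and none passed. Aox3, an aldehyde oxidase, ranged from 3.85 to 5.23 (median 4.64) in control and from 3.83 to 5.54 (median 4.90) in exposed mice, a difference of 0.28 ± 0.14 (SE; adjusted p = 0.428). Tpmt, which methylates thiopurine drugs, stood at 0.22 ± 0.11 (SE; adjusted p = 0.435) and Ephx2 at 0.22 ± 0.17 (adjusted p = 0.636). For each of these the groups overlapped.

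The next comparison was among the runs of animals. Between the 3 exposed runs 1 of the 35 members passed the moderated F test (5.19% of all named genes did), and 5 had an unadjusted p under 0.05 (22.6% of all). That member was Nnmt, which methylates nicotinamide. Its values were 3.99, 4.44, 4.33 and 4.34 in exposed run 1, 3.87, 3.56, 3.28, 3.58 and 3.98 in run 2, and 4.02, 4.20, 3.71, 4.07 and 3.55 in run 3. Every animal of run 1 lay above every animal of run 2, while run 3 overlapped both. The means were 4.28 ± 0.20 (SD, n = 4), 3.65 ± 0.28 (n = 5) and 3.91 ± 0.27 (n = 5), with F = 9.43 (limma adjusted p = 0.0295). Run 2 was lower than run 1 by 0.60 ± 0.14 (SE; a fold of 0.659; adjusted p = 0.0106). Run 1 had the highest mean among the control runs too, at 4.23 ± 0.18 (n = 6), 3.83 ± 0.22 (n = 5) and 3.89 ± 0.09 (n = 4), and this did not pass (F = 5.74; adjusted p = 0.52). The call was lost with slide as a fixed block (adjusted p = 0.169) and with array position as a term (adjusted p = 0.158). Leaving out exposed animals 177, 179, 180, 194, 195 or 196 in turn also ended it (adjusted p from 0.0515 to 0.088).

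The 4 members next in the F test did not pass. Gstt2 had means of 3.03 ± 0.18 (SD, n = 4), 2.97 ± 0.19 and 3.37 ± 0.21 (n = 5 each) in exposed runs 1, 2 and 3 (F = 6.91; adjusted p = 0.067). Cyp3a13 had 6.65 ± 0.36, 5.85 ± 0.25 and 6.10 ± 0.36 (F = 5.21; adjusted p = 0.127). Ephx1 had 1.38 ± 0.21, 0.91 ± 0.27 and 1.15 ± 0.13 (F = 5.17; adjusted p = 0.128). A second Ephx1 probe passed (adjusted p = 0.0267), and it was the dimmer of the pair. Ugt2b1 had means of 4.31, 5.22 and 5.08 (F = 3.34; adjusted p = 0.256), and its run 1 values of 3.71, 5.27, 3.23 and 5.04 spanned more than those of the other exposed runs. Cyp3a11, with the HNF4 form shown above, stood at 5.94 ± 0.12, 5.49 ± 0.50 and 5.73 ± 0.33 (F = 0.76; adjusted p = 0.728). The members of the CYP2 class had F values from 0.174 to 3.01, that of Cyp2c54 being highest.

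**Figure D3:**
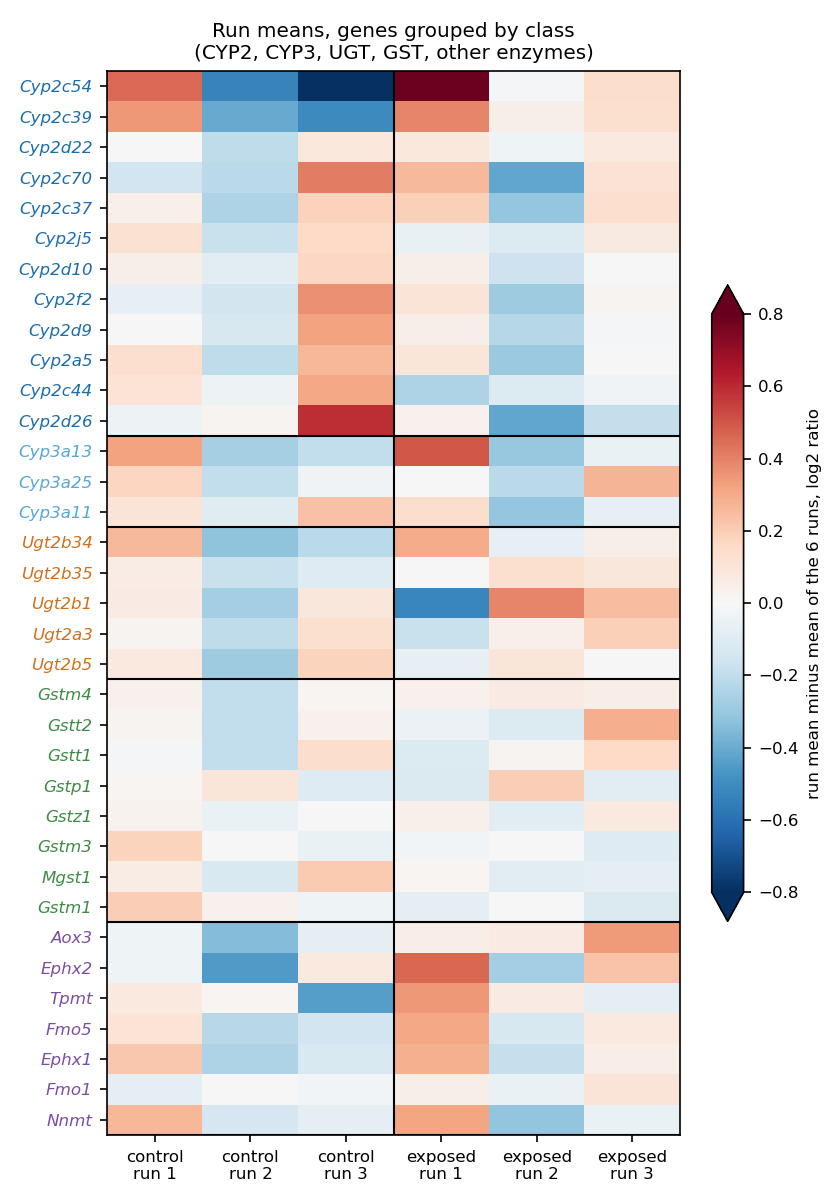
Mean log2 ratio of each run of animal numbers minus the mean of the 6 run means, for the 35 enzymes grouped by class. Colours run from -0.8 to 0.8 on the log2 scale. Cyp2c54, Cyp2c39, Cyp3a13, Nnmt and Ephx1 are high in run 1 of both groups, and the GST genes stay pale.

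The exposed runs were next set, one at a time, against the average of the 3 control runs. In exposed run 1 Cyp2c54 rose, 0 members fell and 34 of the 35 did not pass. Of all named genes 6.07% passed there (1.52% rose and 4.55% fell). Unadjusted p was under 0.05 for 6 members, against 22.1% of all named genes. Its values in exposed run 1 were 4.70, 6.15, 5.80 and 5.86, against means of 5.30 ± 0.56 (SD, n = 6), 4.31 ± 0.66 (n = 5) and 4.01 ± 0.74 (n = 5) in control runs 1, 2 and 3. Animals 177, 179 and 180 lay above all 16 controls, the highest of which stood at 5.78, and animal 176 lay inside the control range. The difference was 1.08 ± 0.29 (SE; 2.12-fold; limma adjusted p = 0.0255).

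The comparison depended on the control run. Against control run 1 alone Cyp2c54 differed by 0.36 ± 0.33 (SE; adjusted p = 0.726), against control run 2 by 1.34 ± 0.35 (adjusted p = 0.028) and against control run 3 by 1.55 ± 0.34 (adjusted p = 0.00895). Control runs 2 and 3 lay below control run 1 by 0.98 ± 0.31 and 1.19 ± 0.31 (SE), which did not pass (adjusted p = 0.433 and 0.247). From the processed Agilent signals the difference was 0.49 (adjusted p = 0.52). Without exposed animal 176 it was 1.47 (adjusted p = 0.00579), and without animals 177, 179 and 180 in turn it was 0.91, 0.92 and 1.04 (adjusted p = 0.137, 0.108 and 0.0786). The reference RNA in Cy3 at the Cyp2c54 probe stood 0.46 ± 0.20 (SE) higher in exposed run 1 (adjusted p = 0.669), and its part in the result was not tested.

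Tpmt was the member next to Cyp2c54 by p in exposed run 1 and did not pass. It had values of 2.72, 3.47, 3.09 and 2.89 there and means of 2.77 ± 0.31 (SD, n = 6), 2.71 ± 0.30 and 2.25 ± 0.29 (n = 5 each) in control runs 1, 2 and 3. Its difference was 0.47 ± 0.15 (SE; 1.39-fold; adjusted p = 0.0588), and it passed in 13 of 50 other settings. Against control run 3 alone it was 0.78 ± 0.18 (adjusted p = 0.00993), and against control run 1 alone 0.29 ± 0.17 (adjusted p = 0.518). Cyp2c39 stood at 0.55 ± 0.21 (adjusted p = 0.13) and Cyp3a13 at 0.52 ± 0.20 (adjusted p = 0.126). Ephx1 stood at 0.34 ± 0.12 (adjusted p = 0.106) and Nnmt at 0.27 ± 0.11 (adjusted p = 0.178). Against control run 1 alone these 4 stood at 0.06, 0.19, 0.08 and 0.03. In that comparison 0 of the 35 members passed by limma (0.304% of all named genes did), and 0 had an unadjusted p under 0.05, against 1712 of the 12188 named genes. Against control run 2 alone 2 passed, Cyp2c54 and Ephx1 (4.85% of all), and against control run 3 alone 2 passed, Cyp2c54 and Tpmt (4.55% of all).

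By class, the medians in exposed run 1 were 0.00 for CYP2, 0.00 for CYP3, -0.13 for UGT, -0.07 for GST and 0.34 for the other enzymes, against -0.04 for all named genes. All 7 other enzymes had an estimate above 0, from 0.04 for Fmo1, a flavin monooxygenase, to 0.47 for Tpmt. The GST genes lay between -0.14 and 0.06, with 6 of 8 below 0.

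**Figure D4:**
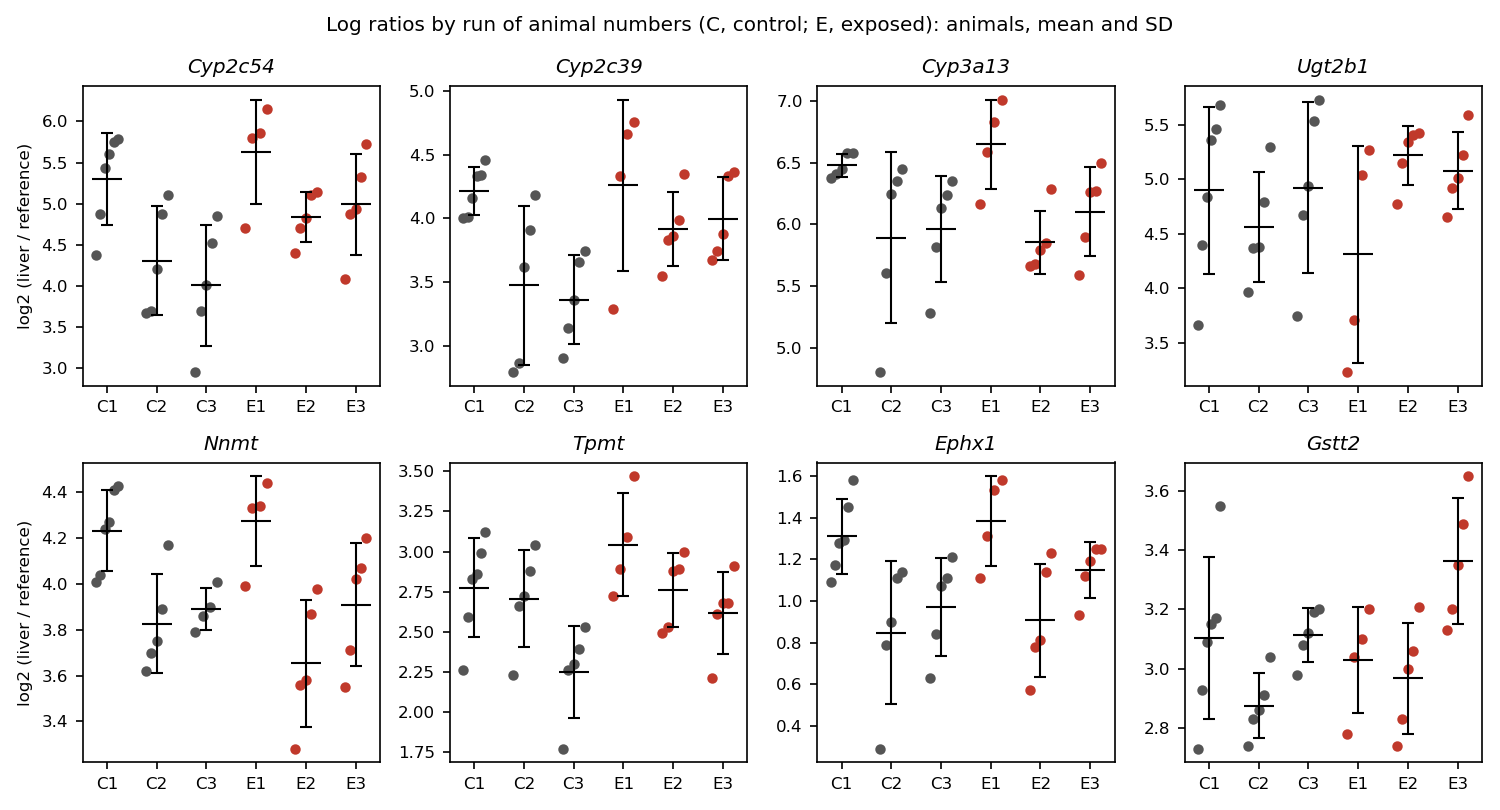
Log2 ratio of liver over reference for 8 enzymes in each animal, by control run (C1 to C3, grey) and exposed run (E1 to E3, red), with the mean and SD of the run. Cyp2c54 has means of 5.30 in C1 and 5.63 in E1 and lower means in the other 4 runs, and Gstt2 is highest in E3 with a mean of 3.37.

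In exposed run 2, 0 of the 35 members passed against the mean of the control runs (0.00820% of all named genes did), and 1 had an unadjusted p under 0.05 (10.6% of all). That was Nnmt, at -0.33 ± 0.11 (SE; adjusted p = 0.254). All 3 CYP3 genes were below 0 (-0.32 to -0.20), and 9 of 12 CYP2 genes were. In exposed run 3, 0 members passed (0.139% of all did), and 2 had an unadjusted p under 0.05 (13.2% of all). Those were Gstt2, at 0.34 ± 0.09 (SE; 1.27-fold; adjusted p = 0.113), and Aox3, at 0.50 ± 0.20 (1.42-fold; adjusted p = 0.285). Gstt2 values in run 3 were 3.65, 3.35, 3.49, 3.13 and 3.20, and the control range of 2.73 to 3.55 held all but the highest of them. Of 12 tested clock genes 0 passed in exposed run 3 (0.139% of all did), with a median of 0.49. In exposed run 1, 2 rose (1.52% of all named genes did), Tef by 1.06 ± 0.27 and Per3 by 0.61 ± 0.15 (SE), with a median of 0.30. The medians pool genes that moved in opposite directions. In exposed run 3 Dbp had a mean of 0.78, against -1.03 in controls, and Arntl -0.22, against 0.98. Among the exposed runs 1 of the 12 passed (5.19% of all named genes did), Nr1d1 (adjusted p = 0.0395). With a score of clock genes as a covariate, Gstt2 in exposed run 3 stood at 0.17 (adjusted p = 0.833). That score ranged from 0.01 to 1.84 in exposed run 3 and from -1.58 to 1.47 in controls. Score and run thus went partly together, and the part of the clock in the Gstt2 value was not tested. With the score as a covariate Nnmt among the exposed runs had F = 8.91 (adjusted p = 0.0361).

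Among the control runs 0 of the 35 members passed the F test (0.107% of all named genes did), and 7 had an unadjusted p under 0.05 (7.62% of all). Cyp2c54 (F = 8.66; adjusted p = 0.309), Cyp2c39 (F = 7.37; adjusted p = 0.392) and Ephx1 (F = 6.43; adjusted p = 0.463) had the smallest p. Nnmt, Tpmt, Ugt2b34 and Cyp3a13 made up the 7. For Cyp2c39 every animal of control run 1 (4.22 ± 0.19, SD, n = 6) lay above every animal of control run 3 (3.36 ± 0.35, n = 5). The same held for the measured animals for Cyp3a13 (6.48 ± 0.09 and 5.96 ± 0.43, n = 5 each), where 1 value of control run 1 was missing. How many of all named genes separate in this way between runs is not given here. With array position as a term the F value of Cyp2c54 among control runs was 7.35 (adjusted p = 0.517).

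Many of these genes varied more between animals of the same run than most named genes did, as did markers of several cell types. The median SD within runs was 0.59 for the UGT genes, 0.48 for CYP2, 0.45 for CYP3, 0.39 for the other enzymes and 0.23 for the GST genes, against 0.17 over all named genes, 0.34 over the 70 other drug metabolism genes described below and 0.50 over the 5 hepatocyte markers. Markers of the other cell types had medians from 0.22 (pancreas acinar) to 0.47 (Kupffer cell, sinusoidal endothelium, red cell, T and B cell). Among the members, Cyp2d26 (0.76, with the high controls 572 and 596 included), Ugt2b5 (0.73) and Cyp2c70 (0.67), which makes muricholic acids in mouse liver, varied most. Gstz1, an enzyme of tyrosine breakdown, and Gstt2 varied least, at 0.19 each. The members also varied together. Across the 30 animals, with run means removed, the median correlation over 595 pairs of members was 0.54, against 0.05 over pairs of named genes. These are descriptions, since all values of an animal come from the same array.

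The shared variation went with the width of the ratios on each array. The SD of the log2 ratios of all named genes on an array ranged from 1.45 to 1.75. With run means removed, its correlation with the mean of the members over 30 animals was 0.97. A wider array moves any gene far above the reference upward, and most members stand there. This correlation and the changes with scaling below are therefore partly built in. The member mean from processed Agilent signals correlated with the member mean used here at 0.66. From those signals the median correlation between members was 0.65, against 0.01 over pairs of named genes. The mean of the hepatocyte markers correlated with the member mean at 0.83 and the median Cy5 signal at -0.22. When every array was scaled to equal SD, the median correlation between members was 0.14 and their median SD within runs 0.25. By class that SD became 0.41 for UGT, 0.31 for CYP2, 0.22 for CYP3, 0.25 for the other enzymes and 0.21 for GST. Within classes the median correlation went from 0.74 to 0.59 for UGT, from 0.75 to 0.35 for CYP2, from 0.52 to -0.10 for CYP3, from 0.38 to 0.09 for GST and from 0.45 to -0.02 for the other enzymes. Ugt2b34 and Ugt2b35, whose promoters are shown above, correlated at 0.82 after scaling and 0.90 before. Cyp2d9 with Cyp2f2 (0.89), Cyp2c44 with Cyp2j5 (0.87) and Cyp2c39 with Cyp2c54 (0.79) were the CYP2 pairs with the highest values after scaling. Cyp2c44, now named Cyp2c23, and Cyp2j5 both make epoxides of arachidonic acid, and Cyp2f2 is known for activating naphthalene.

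**Figure D5:**
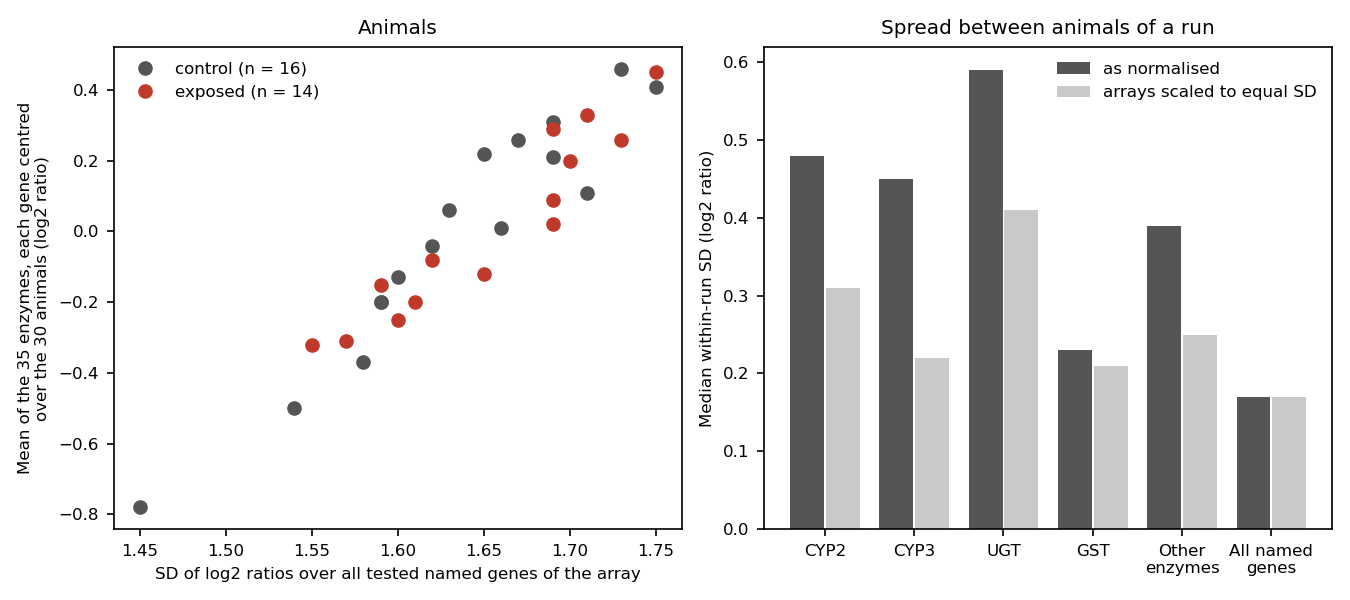
Left, the mean of the 35 enzymes in each animal, with each gene centred over the 30 animals, against the SD of the log2 ratios of all named genes on its array. Right, the median SD within runs by class before and after all arrays were scaled to equal SD; the UGT bar falls from 0.59 to 0.41, and that of all named genes stays at 0.17.

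Equal scaling left the comparison over all animals at 0 of 35 members. In exposed run 1 it gave Cyp2c54 at 1.01 ± 0.24 (SE; adjusted p = 0.0121), Cyp3a13 at 0.45 ± 0.10 (adjusted p = 0.0107) and Tpmt at 0.44 ± 0.13 (adjusted p = 0.045). These 3 compare with 5.50% of all named genes called under that scaling. Among the exposed runs it gave 2 members (4.93% of all), Nnmt (adjusted p = 0.0356) and Cyp3a13 (F = 16.5; adjusted p = 0.00377). Cyp3a13 thus lay on either side of the threshold with the scaling, and its reference signal in Cy3 was 0.72 ± 0.17 (SE) higher in exposed run 1 than in the control runs (adjusted p = 0.61), and its part in the result was not tested.

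A second probe was tested for 11 members. The probes of a gene differed in level, with Mgst1 at 4.11 and 5.93, Cyp3a25 at 6.98 and 5.21 and Cyp2d10 at 4.09 and 5.78 in controls. None of the 11 second probes passed over all animals. In exposed run 1 that of Ephx1 passed at 0.43 (adjusted p = 0.0307), where the brighter probe had 0.34 (adjusted p = 0.106), and the other 10 did not.

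Other genes of drug metabolism were taken from a list of 74 genes, 70 of them tested. Over all animals 0 of the 70 passed, with a median of 0.00. In exposed run 1, 5 rose, 1 fell and 64 did not pass, with a median of 0.02, where 6.07% of all named genes passed. Cyp2b10, a P450 controlled by CAR, had a mean of 5.96 there, against 5.28, 3.61 and 2.80 in control runs 1, 2 and 3 (adjusted p = 9.9e-05), and Por, which hands electrons to P450 enzymes, rose by 0.79 ± 0.16 (SE; adjusted p = 0.00328). Ugdh, which makes the glucuronic acid donor used by the UGT enzymes, was higher by 0.78 ± 0.12 (adjusted p = 0.000382), while 0 of the 5 UGT members passed. Sult1e1, the estrogen sulfotransferase, had a mean of 4.39, against 2.30, 1.84 and 0.72 in the control runs. Cyp2c55 rose by 0.80 ± 0.23 (SE; adjusted p = 0.0389) against the average of the control runs, while its mean of 0.36 lay below the 0.59 of control run 1 and above the -0.85 and -1.06 of control runs 2 and 3. Gsta4, an alpha class transferase, fell by 0.63 ± 0.11 (adjusted p = 0.00157). The receptors Nr1i2 (pregnane X receptor) and Nr1i3 (CAR) stood at 0.12 ± 0.20 and 0.19 ± 0.16 and did not pass. Among the exposed runs 9 of the 70 passed (5.19% of all named genes did), with Cyp2b10, Ugdh and Cyp2c55 having the smallest p, and among the control runs 2 passed (0.107% of all), Cyp2b10 (adjusted p = 0.000207) and Cyp2c55 (adjusted p = 0.00163). Of 31 tested cell type markers 3 fell in exposed run 1 (4.55% of all named genes fell), the hepatocyte marker Ttr by 1.14 ± 0.25 and the stellate cell markers Col1a1 by 0.61 ± 0.18 and Col3a1 by 0.98 ± 0.19. The other hepatocyte markers stood between -0.11 (Apoa1) and 0.18 (Tat). The other stellate cell markers, Dcn, Lrat and Reln, stood at 0.05, 0.11 and -0.32. The mean of the 5 hepatocyte markers in exposed run 1, Ttr included, was 5.76, against 5.83, 5.83 and 6.12 in control runs 1, 2 and 3, and its part in the results was not tested.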

How the data were processed

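Liver RNA of 16 control and 14 exposed mice was measured on 2-colour Agilent arrays. Per the file headers, the authors extracted foreground and background intensity per spot with Agilent Feature Extraction (25 arrays with version 10.7.3.1, 5 with version 10.1.1.1). The deposited value table holds log2 ratios of Cy5 over Cy3, as a check against the scanner values showed (each of 30 columns matched its own array best), and was used as an alternative.

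Median signals were background-corrected (normexp, offset 50) and normalised by loess within arrays, with control spots at weight 0 and outlier spots missing (R 4.3.3, statmod 1.5.0, limma 3.58.1). Of 41174 probes, 24375 were named by transcript through RefSeq. The tests covered 23607 probes, of which 6534 had no gene name. A gene is represented by its probe with the highest mean Cy5 signal. limma's moderated tests were two-sided, with slide as a random block (correlation 0.159 for 2 groups, 0.147 for 6 runs) and Benjamini-Hochberg adjustment over all tested probes. The fits were tested on simulated data. Full statistics were kept for members past the threshold and, in each class, for the 3 with the smallest p over all animals and among exposed runs, and other metabolism genes past the threshold were named, at most 6 a comparison. Members, lists and tests were chosen with earlier results of these data known. P-values rest on the spread between single animals, and the number of arrays limits precision. Alternatives comprised other background corrections, normalisations, filters, probes, blocks and covariates, and leaving out each animal.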

Additional observations from a re-analysis of the deposited data

Results flagged for a closer look

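A gap test within each run covered 209 combinations of member and run. It marked 7 combinations in which an animal stood far from the others of its run. About 1 in 20 combinations, or 10.4, would be marked by chance. Exposed animal 176 was low in exposed run 1 for Ugt2b34 (4.23, the next animal at 5.43), Ugt2b35 (3.96, next 5.76) and Aox3 (3.83, next 4.99). Control animal 595 was low in control run 3 for Gstp1 (-0.92, next -0.37) and Fmo5 (3.94, next 5.00). Control animal 600 was high for Gstz1 (4.23, next 3.95), and exposed animal 197 was high for Fmo5 in exposed run 2 (5.29, next 4.89). Nnmt was marked because it differed among the exposed runs by the F test (limma adjusted p = 0.0295).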

How the results depend on the processing

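The count of 0 members over all animals stayed at 0 in all 47 alternatives. Among the exposed runs (1 member) the count was 3 with processed Agilent signals or array weights, 4 without background correction, 5 in the deposited table, 2 with median centring, with the second probe and with either correction for array width, and 0 with slide as a fixed block or array position as a term. For exposed run 1 (1 member) it was 3 with processed signals or equal width, 5 without background correction or with width as a covariate, 4 with median centring or array weights, 7 in the deposited table, 2 with probes above background on all arrays, with the second probe and with control runs 2 or 3 alone, and 0 with control run 1 alone. Among the control runs (0 members) the width covariate gave 2. Exposed run 2 (0) gave 1 against control run 1 alone, and exposed run 3 (0) gave 1 with array weights. Where these counts moved, the cause was not tested. Apart from equal width and, for exposed run 1, single control runs, the share of all named genes called is not given here. The counts thus do not show whether a setting called more members or more genes in general. The corrections for array width and the fits without the older software version or without the slide of control animals only were chosen after seeing the data.

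Leaving out each of the 30 animals gave 0 to 2 members among the exposed runs, 0 to 4 for exposed run 1, 0 to 1 for exposed run 3 and 0 in the other comparisons. The count of 4 came without exposed animal 176 (Cyp2c39, Cyp2c54, Ugt2b34 and Tpmt). The share of all named genes called without an animal is not given here either. Without the slide that held control animals 572 and 596 only, Cyp2d26 over all animals stood at -0.09 ± 0.12, and the counts of members called in the 6 comparisons did not move. No paired analysis was possible because the numbers in the labels are animal numbers, and none is shared by the groups.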
